A study of Mus musculus with 16 samples.

Results

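The genes described here are 40 genes of the mitotic and DNA replication machinery, followed in whole back skin and in sorted hair follicle stem cells (HFSC) of control mice and of mice labelled GRK2 eKO. They were taken by symbol, as rows of each deposited table whose mouse Ensembl identifier maps to the listed name. All 40 were found among the 55357 gene rows of the skin table and the 56953 rows of the HFSC table. By their role, 23 act in mitosis, 10 in DNA synthesis, and 7 in the passage through G1 and the entry into S phase. In each tissue 39 of the 40 passed the filter on low values; Prc1, a microtubule bundling protein of the spindle midzone, was listed at 0 in all 16 libraries. The model of Prc1 lies wholly within that of Rccd1 on the opposite strand in the GENCODE M21 annotation, and no value for it is given.

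The series concerns GRK2, a kinase that phosphorylates activated G-protein-coupled receptors, and its place in hair follicle homeostasis. All mice are of the strain C57BL/6. The skin groups are 5 control and 5 eKO libraries of back skin at 8 months, prepared from poly-A RNA. The HFSC groups are 3 control and 3 eKO libraries of CD34+ α6-integrin+ bulge cells collected by flow cytometry. The genotype labels of the HFSC groups give 18 months whereas the series text gives 8 months, so their age is unsettled. The labels do not spell out eKO, do not name the promoter that drives the deletion, and give neither sex nor preparation batch. They also do not say which libraries come from separate animals, so the p-values measure the spread between these libraries, which may be partly technical.

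Recovered reads ran from 8213632 to 16383486 per skin library and from 6428488 to 9387378 per HFSC library. Levels are given as the normalised read counts of the deposited tables. Grk2 (ENSMUSG00000024858), the targeted gene, was at 1237, 1331, 1331, 1099.7 and 1492 in the control and 979.7, 1100.4, 1172, 1076 and 1224 in the eKO skin libraries. In HFSC it was at 139, 121 and 144 in the control and 114, 122 and 104 in the eKO libraries. The labels do not say which exons were deleted, so counts over the whole gene check the labels only weakly. Its difference was not past the threshold in skin (adjusted p = 0.343, limma) or in HFSC (adjusted p = 0.501, limma). The sum of 4 Y-linked genes was below 2 in skin control 5 and skin eKO 3 against 2297 or more in the other skin libraries. In HFSC that sum was 2340 to 2476 in the control and 704 to 831 in the eKO libraries, so genotype and a difference in Y-linked RNA cannot be told apart there. All 10 bulge stem cell markers listed were tested in HFSC, and their summed value was 161552 to 166380 in the control and 143069 to 163515 in the eKO libraries.

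A dividing cell passes from G1 through DNA synthesis in S phase and G2 into mitosis. D-type and E-type cyclins with their kinases release E2F factors, which switch on genes for licensing and copying DNA. Genes of the later phases are switched on in G2 by the MuvB complex with B-Myb and FoxM1, and their RNAs are degraded or diluted when the cell leaves the cycle. In the hair follicle, bulge stem cells divide seldom and mainly at the start of a growth phase, while the matrix keratinocytes of a growing hair divide rapidly. In bulk samples, fewer dividing cells and less RNA of these genes per cell cannot be told apart.

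Promoters of cell cycle genes carry elements that differ with the phase in which a gene is switched on, and 7 are shown for the elements they hold or lack. RefSeq gave a 250-base window upstream of the start (mouse build GRCm38.p6) for 32 of the 40 genes. Each window was searched on both strands for CCAAT (the box bound by NF-Y), for the cell cycle genes homology region, CHR (TTTGAA or TTCGAA, the element bound by MuvB), and for E2F sites (TTTCGCGC, TTTGGCGC, TTTCCCGC or TTTGCCGC). Matches to E2F forms may overlap one another, and capitals mark every match. Mki67, Rrm1 and Ccne1 are the genes of each role with the smallest p in HFSC. Ccnb2, Cdc20, Cdk1 and Mcm6 were added after their values were seen, to show CHR, CCAAT and E2F matches side by side. The windows lie at chr7:135716380-135716629 (Mki67), chr9:70421555-70421804 (Ccnb2), chr4:118437344-118437593 (Cdc20), chr10:69352913-69353162 (Cdk1) and chr1:128359706-128359955 (Mcm6) on the minus strand, chr7:102441445-102441694 (Rrm1) on the plus strand, and chr7:38107491-38107740 (Ccne1) on the minus strand.
Mki67: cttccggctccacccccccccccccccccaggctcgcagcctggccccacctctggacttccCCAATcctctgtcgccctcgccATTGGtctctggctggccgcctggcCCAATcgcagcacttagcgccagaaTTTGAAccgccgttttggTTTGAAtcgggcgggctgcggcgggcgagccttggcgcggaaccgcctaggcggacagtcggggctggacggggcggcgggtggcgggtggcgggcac
Ccnb2: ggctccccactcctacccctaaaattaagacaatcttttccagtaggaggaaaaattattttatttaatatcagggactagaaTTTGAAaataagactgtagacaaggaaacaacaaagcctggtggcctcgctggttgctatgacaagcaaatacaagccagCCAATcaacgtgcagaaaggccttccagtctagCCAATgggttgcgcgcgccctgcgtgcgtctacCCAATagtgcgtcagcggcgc
Cdc20: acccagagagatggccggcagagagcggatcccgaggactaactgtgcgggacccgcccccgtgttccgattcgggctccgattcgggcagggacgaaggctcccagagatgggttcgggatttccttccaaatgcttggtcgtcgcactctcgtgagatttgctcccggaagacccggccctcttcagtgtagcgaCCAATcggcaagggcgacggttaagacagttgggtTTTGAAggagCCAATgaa
Cdk1: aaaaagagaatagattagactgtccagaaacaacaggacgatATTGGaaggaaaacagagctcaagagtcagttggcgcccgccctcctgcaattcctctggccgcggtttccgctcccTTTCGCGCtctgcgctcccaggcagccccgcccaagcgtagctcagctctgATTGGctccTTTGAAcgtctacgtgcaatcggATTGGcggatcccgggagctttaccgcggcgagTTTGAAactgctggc
Rrm1: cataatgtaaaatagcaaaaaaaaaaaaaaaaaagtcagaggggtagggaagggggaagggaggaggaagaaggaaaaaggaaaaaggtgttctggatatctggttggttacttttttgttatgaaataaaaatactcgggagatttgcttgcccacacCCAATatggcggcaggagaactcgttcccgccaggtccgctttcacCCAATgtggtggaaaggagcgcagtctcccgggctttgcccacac
Mcm6: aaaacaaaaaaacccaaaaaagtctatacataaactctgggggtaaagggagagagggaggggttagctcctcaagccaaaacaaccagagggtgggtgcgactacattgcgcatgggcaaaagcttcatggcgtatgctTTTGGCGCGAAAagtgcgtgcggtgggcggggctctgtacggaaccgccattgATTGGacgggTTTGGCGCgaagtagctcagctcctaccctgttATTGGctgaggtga
Ccne1: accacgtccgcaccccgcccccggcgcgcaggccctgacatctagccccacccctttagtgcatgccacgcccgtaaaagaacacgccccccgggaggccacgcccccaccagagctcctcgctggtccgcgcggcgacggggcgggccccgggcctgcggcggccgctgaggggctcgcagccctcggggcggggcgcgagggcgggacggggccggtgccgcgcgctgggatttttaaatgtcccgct

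A CHR match was found in 8 of 19 mitosis genes with a window (42.1%), in 2 of 9 replication genes (22.2%) and in 0 of 4 G1 and S entry genes, against 17.4% of all 27025 promoters. CCAAT was present in 17 of the 19 mitosis genes (89.5%) and 8 of the 9 replication genes (88.9%), against 34.5% of all promoters. All 8 mitosis genes with a CHR match also held CCAAT, a pair found in 6.21% of all promoters. E2F sites were found in 3 of the 9 replication genes (Mcm5, Mcm6 and Mcm7), in Cdk1 alone of the mitosis genes and in Cdc6 alone of the G1 and S entry genes, against 1.91% of all promoters. The Ccne1 window held none of the 3 elements. In further genes of the same processes, described below, CHR was in 38.5% of 39 mitosis, 17.9% of 28 replication and 35.3% of 17 G1 and S entry windows. CCAAT was in 64.1%, 60.7% and 47.1% of these windows, in that order, and E2F sites in 7.69%, 14.3% and 41.2%. The low shares of CHR and CCAAT in G1 and S entry genes were thus not seen in the further genes. These counts describe letters in a short window, and no binding was measured.

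In HFSC, 9 of the 39 genes tested were higher in the eKO libraries and 0 were lower. Over all 13784 genes tested, 10.7% were higher and 8.74% lower (limma, Benjamini-Hochberg adjusted p under 0.05). The mitosis genes gave 6 of these calls, the replication genes 1 and the G1 and S entry genes 2. The median log2 fold change, on the log2(value + 1) scale that understates the change of low genes, was 0.59 over the mitosis genes, 0.13 over the replication genes and 0.11 over the G1 and S entry genes, against -0.03 over all genes. The estimate was above 0 for 21 of 22 mitosis genes, 8 of 10 replication genes and 5 of 7 G1 and S entry genes, against 47.7% of all genes. Every eKO library lay above every control library for 16 of the 39 genes and below for 0; over all genes these shares were 18.9% and 17.4%. An unadjusted p under 0.05 was given by 15 of the 39, against 32.8% of all genes. The tests on recovered reads, edgeR and DESeq2, each called 11 of the 39 higher and 0 lower, with 18.9% and 21.9% of all genes called in either direction.

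Mki67 (ENSMUSG00000031004), which codes for the Ki-67 protein that coats mitotic chromosomes and marks cycling cells, was at 326, 354 and 298 in the control and at 812, 802 and 889 in the eKO HFSC libraries. The groups did not overlap, and the group means were 326 ± 28.3 (SD, n = 3) and 835 ± 47.7 (SD, n = 3). The log2 fold change was 1.35 ± 0.13 (SE), with an adjusted p of 2.06e-05 in limma. Ccnb2 (ENSMUSG00000032218), a B-type cyclin that drives entry into mitosis with Cdk1, was at 51.9, 68.4 and 35 in the control and at 155, 136 and 136 in the eKO libraries. All 3 eKO libraries were above the highest control library, and the log2 fold change was 1.49 ± 0.31 (SE, adjusted p = 0.00457, limma). Mki67 and Ccnb2 stayed past the threshold under each of the 14 alternatives run, with adjusted p between 7.26e-19 and 0.000393 for Mki67 and between 0.000197 and 0.0209 for Ccnb2. The promoters of both, printed above, hold a CHR match and CCAAT. The same pair is in the windows of Cdc20, which passed the threshold. It is also in those of Cdk1, Top2a, Bub1b, Kif11 and Ube2c, which did not. Plk1 and Cenpa passed the threshold without a CHR match in their windows. A relation of these elements to the calls was not tested.

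Cdc20 (ENSMUSG00000006398), the activator of the anaphase-promoting complex, was at 23.9, 29.5 and 25 in the control and 77.3, 71.3 and 54.3 in the eKO libraries. Its log2 fold change was 1.33 ± 0.37 (SE, adjusted p = 0.0249, limma). The 3 control libraries were close together and all below the eKO libraries. Plk1 (ENSMUSG00000030867), a kinase of centrosome maturation and mitotic entry, was at 32.9, 17.9 and 58 in the control and 116, 92.1 and 65 in the eKO libraries. Here the groups nearly met, between control 3 and eKO 3, and the log2 fold change was 1.42 ± 0.44 (SE, adjusted p = 0.0382, limma).

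Tpx2 (ENSMUSG00000027469), which activates Aurora A on spindle microtubules, was at 93.7, 91.5 and 72 in the control and 207, 125 and 168 in the eKO libraries. The eKO libraries were spread widely but lay above all controls, with a log2 fold change of 0.93 ± 0.26 (SE, adjusted p = 0.0262, limma). Cenpa (ENSMUSG00000029177), the histone H3 variant that marks centromeres, was at 143, 109 and 93 in the control and 215, 218 and 187 in the eKO libraries. Its groups did not overlap, and its log2 fold change was 0.86 ± 0.23 (SE, adjusted p = 0.0192, limma).

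**Figure D1:**
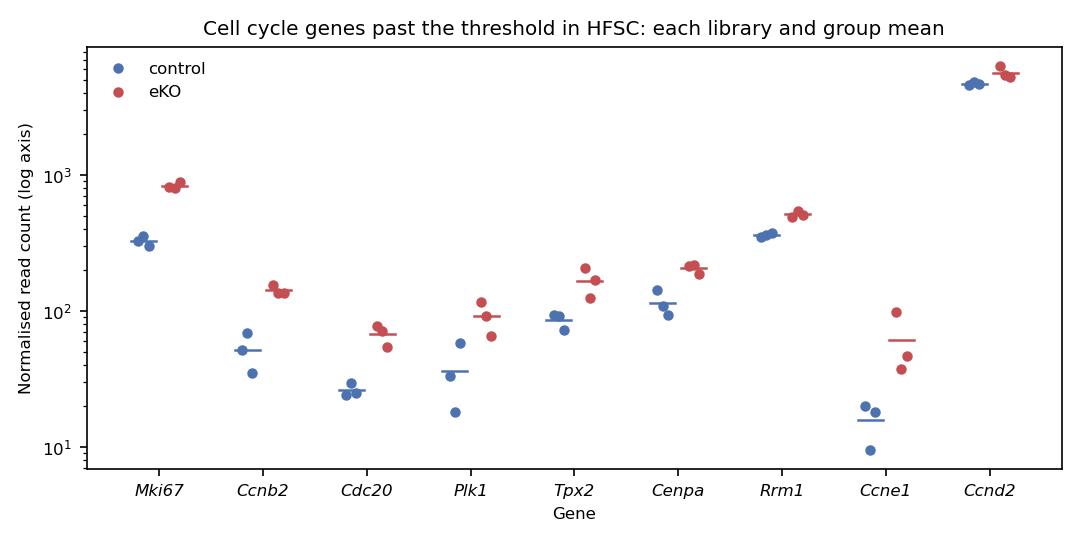
Normalised read count (log axis) of the 9 cell cycle genes past the threshold in HFSC, with 1 point per library (blue, 3 control; red, 3 eKO) and a line at each group mean. For all 9 genes the eKO points lie above the control points, from 1.2-fold for Ccnd2 to 3.52-fold for Ccne1 as fitted, and the gap is narrowest for Ccnd2 and Plk1.

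The other 16 mitosis genes tested did not pass the threshold. Among them was Ccnb1, the other B-type cyclin listed (log2 fold change 0.35, adjusted p = 0.288, limma). Bub1b, a spindle checkpoint kinase, was at 38.9, 47.3 and 57 in the control and 77.3, 139 and 79.9 in the eKO libraries (log2 fold change 1.0, adjusted p = 0.0573, limma). Aurka, the Aurora A kinase, was at 46.9, 70.5 and 48 in the control and 113, 101 and 89.5 in the eKO libraries (log2 fold change 0.88, adjusted p = 0.0585, limma). Kif23, a kinesin of the central spindle, was at 57.8, 47.3 and 36 in the control and 98.6, 85.5 and 85.2 in the eKO libraries (log2 fold change 0.94, adjusted p = 0.0556, limma). In these 3 genes, as in Top2a and Kif20a, the groups did not overlap but the difference missed the threshold. Ccna2, the A-type cyclin of S and G2 phase, was at 122, 116 and 106 in the control and 75.1, 113 and 133 in the eKO libraries. Cdk1, the kinase partner of the mitotic cyclins, was at 30.9, 21 and 54 in the control and 31.8, 41.7 and 44.7 in the eKO libraries. Both overlapped, with 95% intervals of the log2 fold change of -0.72 to 0.46 for Ccna2 and -0.73 to 1.21 for Cdk1, which leave room for change in either direction. Estimates for the checkpoint kinase Bub1 (0.032), the Aurora B kinase gene Aurkb (0.11), the spindle motor Kif11 (0.14) and the spindle protein Nusap1 (0.18) were also small beside their intervals, of which that of Bub1 was widest (-1.46 to 1.52).

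Among replication genes Rrm1 alone passed the threshold. Rrm1 (ENSMUSG00000030978), the large subunit of ribonucleotide reductase, which makes deoxyribonucleotides, was at 350.0, 359.8 and 374 in the control and 492, 546 and 510.2 in the eKO libraries. Its log2 fold change was 0.51 ± 0.14 (SE, adjusted p = 0.0195, limma), and the groups did not overlap. Rrm2, the small subunit of the same enzyme, was at 538, 533 and 514 in the control and 647, 620.4 and 772 in the eKO libraries (log2 fold change 0.36, adjusted p = 0.0761, limma). Mcm6, a subunit of the replicative helicase, was at 347, 328 and 313 in the control and 523, 374 and 514 in the eKO libraries (log2 fold change 0.50, adjusted p = 0.0520, limma). Rrm2 and Mcm6 did not overlap between groups but missed the threshold. The other helicase subunits had estimates of 0.056 (Mcm2), 0.37 (Mcm3), 0.16 (Mcm4), -0.034 (Mcm5) and 0.097 (Mcm7), none past the threshold. Tyms, thymidylate synthase, was estimated at 0.068 (95% interval -0.28 to 0.42). Pcna, the sliding clamp of DNA polymerase, was at 114, 115 and 86 in the control and 51.6, 129 and 84.2 in the eKO libraries, with eKO 1 the lowest and eKO 2 the highest of the 6.

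Ccne1 (ENSMUSG00000002068), the E-type cyclin that activates Cdk2 at S phase entry, was at 19.9, 9.47 and 18 in the control and 97.8, 37.3 and 46.9 in the eKO libraries. Its log2 fold change of 1.81 ± 0.51 (SE, adjusted p = 0.0256, limma) was the largest of the 39 genes, at low values. The groups did not overlap, and eKO 1 stood well above the other eKO libraries. Ccnd2 (ENSMUSG00000000184), a D-type cyclin that couples growth signals to the cycle, was at 4600.5, 4817 and 4649 in the control and 6337, 5418 and 5233 in the eKO libraries. The log2 fold change was small, at 0.27 ± 0.086 (SE, adjusted p = 0.0454, limma), and every eKO library was above every control library. Ccne2, the second E-type cyclin, was at 16, 14.7 and 12 in the control and 1.52, 29.6 and 7.46 in the eKO libraries, where eKO 1 lay under the value of 3 reads (2.27) and eKO 2 was the highest of all. The D-type cyclin Ccnd1 (0.11), the factor E2f1 (0.58) and the licensing genes Cdc6 (-0.26) and Cdt1 (0.081) did not pass the threshold, and these values are log2 fold changes.

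Of the 9 calls, 7 depended on single libraries. Cdc20 missed the threshold without control 1, control 2, control 3, eKO 1 or eKO 2, Plk1 without control 1, control 2, eKO 1 or eKO 2, and Tpx2 without control 1, control 2, control 3, eKO 1 or eKO 3. Cenpa missed it without control 2 or control 3, Rrm1 without control 1, control 2 or control 3, and Ccne1 without control 2, control 3 or eKO 1. Ccnd2 missed it when any library other than eKO 3 was left out, and with scaling by library size alone (adjusted p = 0.114, limma; range over the alternatives 0.0174 to 0.153). All of these estimates stayed above 0, and 2 to 8 genes were called when 1 library was left out.

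Further genes of the same processes gave calls in both directions. Of 43 further mitosis genes tested, 5 were higher (11.6%) and 2 lower (4.65%), against 10.7% and 8.74% of all genes. Their median log2 fold change was 0.42. The share higher is near that of all genes and the share lower is below it, so the called genes are given as single values. Anln, a scaffold of the contractile ring, was at 191, 282 and 187 in the control and 447, 490.0 and 414 in the eKO libraries (log2 fold change 1.05, adjusted p = 0.00187, limma). Cit, the citron kinase of cytokinesis, was at 60.8, 57.9 and 65 in the control and 211, 123 and 161 in the eKO libraries (log2 fold change 1.38, adjusted p = 0.00379, limma). The other 3 higher were the kinetochore scaffold Knl1 (0.80), the microtubule depolymerase Kif2c (1.36) and the spindle protein Hmmr (1.01), and 1 of the 2 lower was separase, Espl1 (-1.05), these values being log2 fold changes of genes chosen after their values were seen. The other was Cdc25b, a phosphatase that activates Cdk1, at 591, 579.6 and 617 in the control and 441, 460.4 and 339.8 in the eKO libraries (log2 fold change -0.54, adjusted p = 0.0238, limma). Of 35 further replication genes, 0 were higher, against 10.7% of all genes, and 2 were lower, against 8.74%, with a median of -0.09. These were Dut, the dUTPase that keeps uracil out of DNA, which fell from 593, 378 and 499 in the control to 276, 307 and 284 in the eKO libraries, and Pola2, a subunit of DNA polymerase alpha, which fell from 132, 122 and 163 to 68.2, 85.5 and 63.9. Their adjusted p was 0.0119 for Dut and 0.0265 for Pola2 (limma). Of the 35, 7 had an unadjusted p under 0.05, against 32.8% of all genes.

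Of 21 further genes of G1 and S entry, 3 were higher and 3 lower in HFSC, against 10.7% and 8.74% of all genes, with a median of 0.04. Counts this small are near those shares, and the 6 genes are given as single values. Cdk6, a kinase partner of D-type cyclins, was at 894, 854 and 1005 in the control and 1643, 1339.5 and 1322 in the eKO libraries (log2 fold change 0.64, adjusted p = 0.00249, limma). By the same measure E2f2 and Myc rose by 0.82 and 0.34. Mycn, the N-Myc factor, was at 1057, 1060.3 and 1251 in the control and 600.5, 599 and 713 in the eKO libraries (log2 fold change -0.82, adjusted p = 0.000622, limma). Rbl2, the pocket protein p130 that represses E2F targets in resting cells, was at 293, 265 and 256 in the control and 159, 146 and 135 in the eKO libraries (log2 fold change -0.88, adjusted p = 0.00562, limma). Ccnd3, the remaining D-type cyclin, had a log2 fold change of -0.39 (adjusted p = 0.0297, limma). For Mycn, Rbl2 and Ccnd3 all 3 eKO libraries were below all 3 control libraries.

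Markers of several other cell types moved with genotype in the same HFSC libraries, where 10.7% of all genes tested were higher and 8.74% lower. The summed value of 10 endothelial markers was 56.0 to 71.5 in the control and 1206 to 1369.9 in the eKO libraries. Of the 9 tested, 8 were higher. Vwf and Emcn were at 0 in all control libraries, and Egfl7 was at 0 in all eKO libraries. The 10 leukocyte markers summed to 333 to 382 in the control and 1370.2 to 2303 in the eKO libraries, with 3 of 5 tested higher and 1 lower. A sum is set mainly by the most abundant markers. The mean log2(value + 1) of this list was 3.63 to 3.71 in the control libraries. It was 4.71, 4.30 and 3.73 in eKO 1, eKO 2 and eKO 3, the last close to the controls. The 8 sebaceous gland markers summed to 2148 to 2333 in the control and 11332 to 12282 in the eKO libraries. Of these, 6 of 7 tested were higher, and Awat1 was at 0 in all eKO libraries. By the sum, every eKO library was above every control library in each of these 3 lists. The hair matrix and shaft markers, of which 19 were found, summed to 601 to 667 in the control and 2413 to 2754 in the eKO libraries, with 8 of 9 tested higher. The 8 inner root sheath markers, which belong to that list, summed to 204 to 238 in the control and 1515 to 1786 in the eKO libraries, with 6 of 6 tested higher and Tchh at 0 throughout. Of the 9 hair shaft keratins found in that list, only 1 passed the filter on low values, and it was higher. Krt32, Krt34, Krt81 and Krt86 were at 0 in all eKO libraries. In all control libraries Krt34, Krt35, Krt81 and Krt83 were at 0. The 8 stressed keratinocyte markers summed to 369 to 423 in the control and 1135 to 1269 in the eKO libraries, with 4 of 4 tested higher. Of the 8 epidermal markers, 5 of 7 tested were higher. Of the 10 bulge stem cell markers 1 was higher and 1 lower, near the shares of all genes. Melanocyte markers went the other way, summing to 1888 to 2269.8 in the control and 622 to 950 in the eKO libraries, with 1 of 4 tested lower. Sums overlapped for dermal fibroblast markers, at 582 to 746 in the control and 554 to 652 in the eKO libraries (1 of 4 tested higher), and for skeletal muscle markers, at 25.2 to 56.0 and 30.7 to 50.1. The part of these cell types and of the difference in Y-linked RNA in the rise of the 9 cell cycle genes was not tested.

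In whole skin, 0 of the 39 genes were past the threshold between genotypes. Over all 16589 genes tested 62 were called, or 0.374% (limma). An unadjusted p under 0.05 was given by 3 of the 39 genes, against 14.2% of all genes. With edgeR 0 of the 39 were called, against 0.326% of all genes, and with DESeq2 0, against 3.95%. The estimate was above 0 for 22 of 22 mitosis genes, against 50% of all genes, for 7 of 10 replication genes and for 4 of 7 G1 and S entry genes. Medians of the log2 fold change were 0.54, 0.06 and 0.18, in that order, and under 0.01 in size over all genes. The mitosis genes share 1 control library that was high in nearly all of them, described below, so their common sign does not count as 22 separate observations. The median over the mitosis genes was 0.26 with edgeR, 0.27 with DESeq2 and 0.91 without that library (limma). The stressed keratinocyte score, the mean log2(value + 1) of genes of wounded or thickened epidermis, was 5.90, 9.78, 6.74, 5.46 and 4.68 in the control and 8.31, 7.31, 8.81, 11.29 and 9.02 in the eKO skin libraries. With that score as a covariate the median over the mitosis genes was 0.76.

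**Figure D2:**
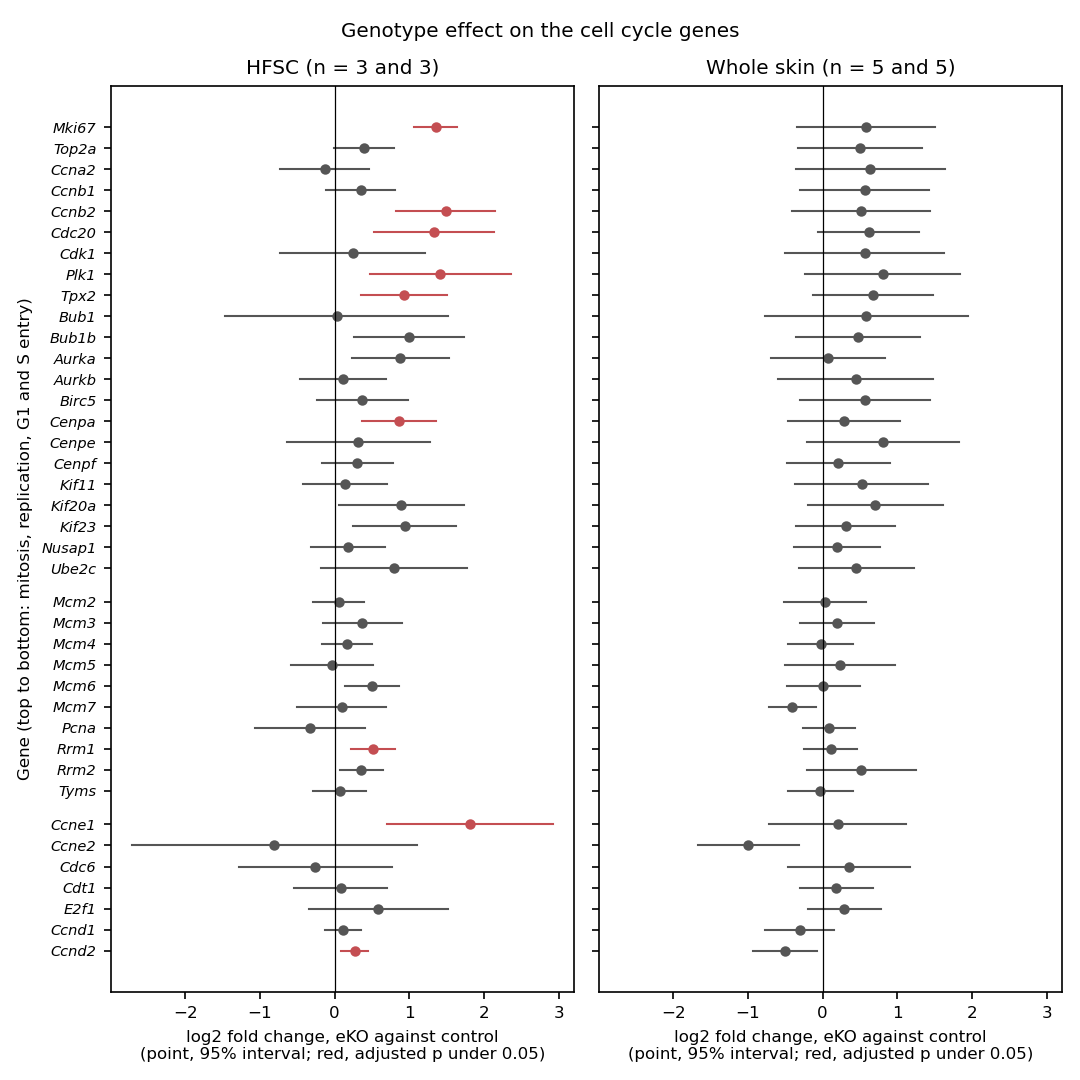
Log2 fold change between eKO and control for each gene tested (point, with its 95% interval as a line) in HFSC (left, 3 against 3 libraries) and in whole skin (right, 5 against 5), ordered from mitosis to replication to G1 and S entry genes. Red marks an adjusted p under 0.05: 9 genes in HFSC, all above 0, and 0 genes in skin, where the intervals of the 22 mitosis genes all include 0.

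The mitosis gene with the largest estimate in skin was Cenpe, a kinesin that moves chromosomes to the spindle equator. Cenpe (ENSMUSG00000045328) was at 36.9, 27, 28.2, 175 and 32.3 in the control and 57.9, 82.5, 80.3, 97.4 and 74.6 in the eKO libraries. Control 4 was the highest of all 10 and the other controls were below every eKO library. The log2 fold change was 0.81 ± 0.46 (SE, adjusted p = 0.467, limma). Without control 4 it was 1.30 with an adjusted p of 0.0425 (limma; range over the alternatives 0.0425 to 0.815), the only call among the 39 genes under any alternative run. Mki67 in skin was at 538, 479.8, 831, 2618 and 763 in the control and 786, 1194, 1419.7, 1855 and 1294 in the eKO libraries, and the groups overlapped (log2 fold change 0.58 ± 0.42, adjusted p = 0.579, limma). Plk1 was at 35.9, 23.6, 47, 155 and 38 in the control and 46.3, 71.7, 93.7, 151 and 86.3 in the eKO libraries, with a log2 fold change of 0.80 ± 0.47 (SE, adjusted p = 0.480, limma). In both genes 4 control libraries were in the lower part of the range and control 4 was above all eKO libraries.

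Among replication genes in skin, Rrm2 (ENSMUSG00000020649) had the largest estimate and was at 131, 150.1, 108, 396 and 106 in the control and 182, 204, 260.1, 286 and 195 in the eKO libraries. Control 4 was again the highest, and the log2 fold change was 0.51 ± 0.33 (SE, adjusted p = 0.531, limma). Mcm7, another helicase subunit, was at 156, 160.2, 132, 219 and 161 in the control and 131, 116, 133, 123 and 114 in the eKO libraries. Its estimate was below 0, at -0.41 ± 0.14 (SE, adjusted p = 0.235, limma), and the groups overlapped only through control 3 and eKO 3. The remaining 8 replication genes had estimates between -0.030 (Tyms) and 0.23 (Mcm5). In the annotation 12.6% of the exonic bases of Mcm7 are shared with other genes, and how such reads were assigned is not given in the sources used here.

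Among G1 and S entry genes in skin, the E-type cyclin Ccne2 and the D-type cyclin Ccnd2 had estimates below 0. Ccne2 (ENSMUSG00000028212) was at 21.8, 16, 17.8, 14 and 20 in the control and 11.6, 11.8, 7.06, 9.36 and 4.39 in the eKO libraries. These are low values, and that of eKO 5 equals 3 reads. All eKO libraries were below all controls, which held for 1 of the 39 genes and for 2.45% of all genes (the reverse held for 0 of the 39 and 1.74% of all genes). The log2 fold change of Ccne2 was -1.0 ± 0.31 (SE, adjusted p = 0.183, limma), and 17.4% of its exonic bases are shared with Ints8. Ccnd2 was at 4373, 3403, 4024, 4348 and 2435 in the control and 2972, 2638, 2536, 1792 and 3105 in the eKO libraries. The groups overlapped and the log2 fold change was -0.50 ± 0.19 (SE, adjusted p = 0.271, limma). Ccnd1 had an estimate of -0.31, and those of Ccne1 (0.20), Cdt1 (0.18), E2f1 (0.29) and Cdc6 (0.36) were above 0.

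The genotype effects of the tissues, each a difference within its own table, were set against each other in 1 fit. The difference, HFSC minus skin, was past the threshold for 0 of the 39 genes, against 5.62% of the 13227 genes tested in both (limma). An unadjusted p under 0.05 was given by 2 of the 39, Ccnd2 and Ccne1, against 21.3% of all genes. Ccnd2 was above 0 in HFSC and below 0 in skin, a difference of 0.77 ± 0.27 (SE, adjusted p = 0.102, limma). Without skin control 5 that difference was 0.92 with an adjusted p of 0.0268 (limma; range over the alternatives 0.0268 to 0.198). For Ccne1 the difference was 1.61 ± 0.68 (adjusted p = 0.183, limma). For Mki67 it was 0.78, with a 95% interval of -0.40 to 1.95, and for Ccnb2 0.98, with an interval of -0.29 to 2.24. So the 9 calls in HFSC and their absence in skin do not show that the effect of genotype differed between the tissues.

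Over both genotypes, skin libraries varied widely in these genes. The highest of the 10 libraries was 2.84 to 12.8 times the lowest for the mitosis genes (median 5.04), 1.68 to 3.81 times for the replication genes (median 2.13) and 1.84 to 4.96 times for the G1 and S entry genes (median 2.49). Control 4 was the highest library for 20 of 22 mitosis genes, 9 of 10 replication genes and 2 of 7 G1 and S entry genes. The widest range was that of Bub1, at 11.4, 7.59, 20.9, 84.9 and 6.65 in the control and 14.2, 27.5, 39.2, 31.8 and 19 in the eKO libraries.

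Hair growth was read from a score, the mean log2(value + 1) of 19 genes of the hair matrix, inner root sheath and hair shaft, which holds none of the 40 genes. It was 1.62, 4.09, 7.58, 11.74 and 8.19 in the control and 2.21, 7.14, 10.01, 9.06 and 2.60 in the eKO libraries. Control 1, eKO 1 and eKO 5 held little hair keratin RNA, and control 4 held the most. The mean log2 value of the mitosis genes was 5.81, 5.59, 6.13, 7.67 and 6.06 in the control and 6.24, 6.75, 6.86, 7.19 and 6.62 in the eKO libraries. Both scores were highest in control 4, and within the eKO group the 3 libraries with the higher hair scores also held the higher mitosis scores. The replication genes ran only from 7.05 (control 3) to 8.14 (control 4) on the same scale. The labels give no hair cycle stage, so the score orders libraries by hair RNA and not by stage. Other cell type scores also stood apart in control 4. Its melanocyte score was 9.84, against 5.53 to 7.67 in the other skin libraries, and its leukocyte score 7.73, against 8.46 to 9.27. The part of these cell types in the relations to the hair score was not tested.

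With genotype as a term, 3 of the 39 genes rose with the hair score and 0 fell, against 1.15% and 0.838% of all 16589 genes (limma). All 3 were mitosis genes. With edgeR 5 of the 39 rose and with DESeq2 15, where 2.47% and 8.84% of all genes were called in either direction. The slope, in log2 units per log2 unit of hair score, was above 0 for 22 of 22 mitosis genes (median 0.14), 10 of 10 replication genes (median 0.041) and 4 of 7 G1 and S entry genes (median 0.019), against 47.6% of all genes (median -0.0021). An unadjusted p under 0.05 was given by 21 mitosis genes, 1 replication gene (Rrm2) and 1 G1 and S entry gene (Cdc6), against 19.6% of all genes. The mitosis genes share the same libraries, so their common sign and small p do not count as 22 separate observations.

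Ccnb1 (ENSMUSG00000041431), the main B-type cyclin of mitotic entry, was at 36.9, 40.5, 62.7, 166 and 63.7 in the control and 69.5, 89.3, 119, 141 and 68.7 in the eKO libraries. Its slope was 0.16 ± 0.030 (SE, adjusted p = 0.0226, limma). The libraries with a hair score above 9, control 4, eKO 3 and eKO 4, were the 3 highest for Ccnb1. Cdk1 (ENSMUSG00000019942) was at 47.3, 30.4, 72.1, 239.9 and 78.9 in the control and 73, 100.1, 135, 181 and 80.4 in the eKO libraries, with a slope of 0.19 ± 0.042 (SE, adjusted p = 0.0450, limma). Cenpa was at 163, 135, 187, 535 and 201 in the control and 197, 260.1, 334, 348 and 200.4 in the eKO libraries, with a slope of 0.14 ± 0.030 (SE, adjusted p = 0.0451, limma). For Cdk1 and Cenpa the same 3 libraries were highest. Mki67 had a slope of 0.16 ± 0.039 (SE) and missed the threshold (adjusted p = 0.0656, limma). Bub1 had the steepest slope, 0.20 ± 0.069 (SE), with the widest error (adjusted p = 0.145, limma).

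**Figure D3:**
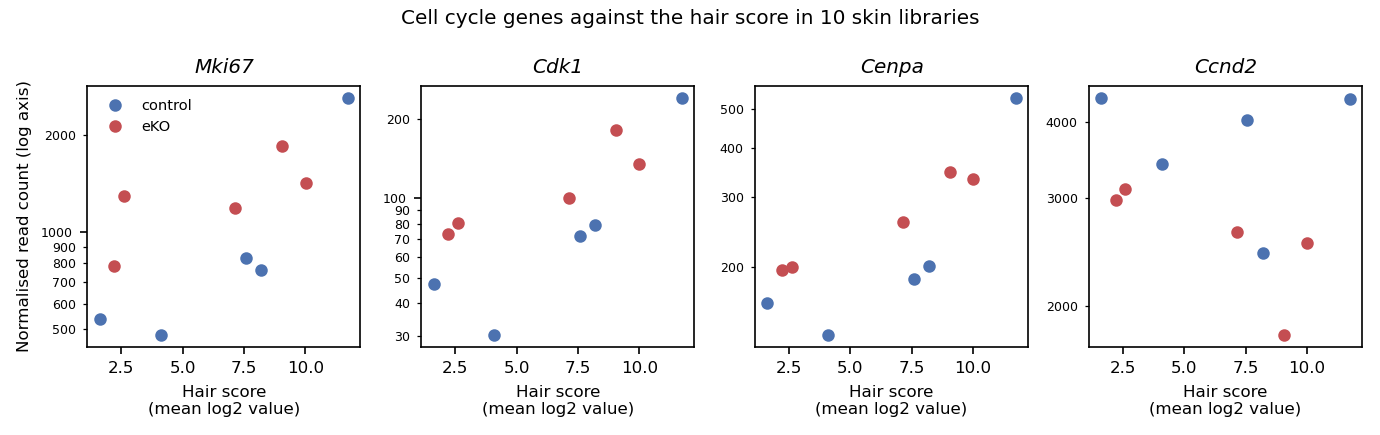
Normalised read count (log axis) of Mki67, Cdk1, Cenpa and Ccnd2 in the 10 skin libraries against the hair score (mean log2 value of 19 hair genes), with 1 point per library (blue, control; red, eKO). Control 4, at a hair score of 11.74, is the highest point for Mki67, Cdk1 and Cenpa, while Ccnd2 is as high in control 1, at a score of 1.62 (4373), as in control 4 (4348).

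Of the 10 replication genes, 0 passed the threshold on the hair score. Rrm2 had the steepest slope among them, 0.092 ± 0.041 (SE, adjusted p = 0.252, limma), and those of Mcm5, Mcm6 and Pcna were 0.073, 0.040 and 0.033. Cdc6, which loads the helicase onto origins, had a slope of 0.13 ± 0.040 (SE, adjusted p = 0.119, limma), within the range of the mitosis genes. Ccnd1 (0.026), E2f1 (-0.0084), Ccne2 (-0.011) and Ccnd2 (-0.034) had slopes near or below 0. Of the further genes of these processes, 44 of 44 mitosis genes and 34 of 36 replication genes had a slope above 0, against 47.6% of all genes, and 0 of them passed the threshold. The 1 call among 21 further G1 and S entry genes, where 1.15% of all genes were higher and 0.838% lower, was Mycn. It was at 26.5, 9.27, 40.7, 582 and 69.4 in the control and 26.7, 36.3, 90.5, 139 and 23.4 in the eKO libraries (slope 0.38 ± 0.082, adjusted p = 0.0458, limma), again highest in control 4. Without control 4, 0 of these 21 genes were called (smallest adjusted p = 0.230, limma).

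**Figure D4:**
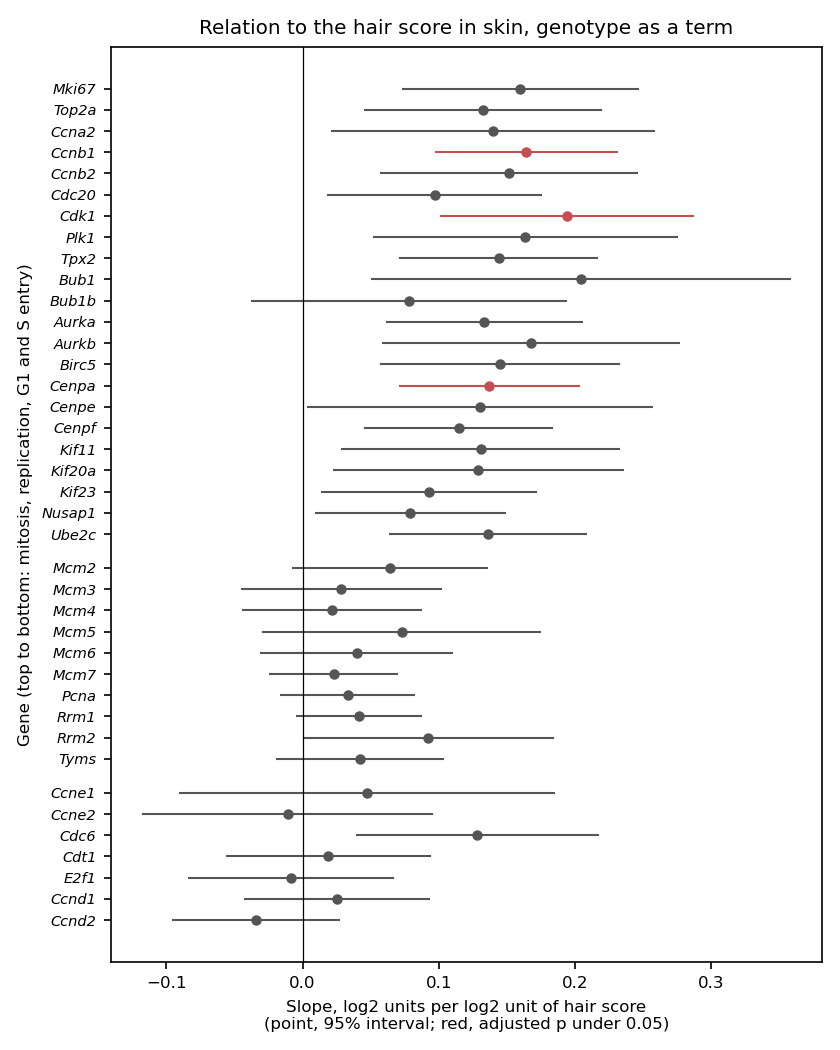
Slope of each gene on the hair score in the 10 skin libraries with genotype as a term, in log2 units per log2 unit of hair score (point, with its 95% interval as a line), from mitosis through replication to G1 and S entry genes. Red marks the 3 genes with an adjusted p under 0.05, Ccnb1, Cdk1 and Cenpa; all 22 mitosis genes lie right of 0 and the replication genes lie closer to it.

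Each of the 3 calls on the hair score was lost when some single libraries were left out. Without control 4, 0 of the 39 genes were called, and the slopes were 0.12 for Ccnb1 (adjusted p = 0.103, limma; range over the alternatives 5.86e-05 to 0.713), 0.14 for Cdk1 and 0.088 for Cenpa. Without control 1 the number called was also 0 (adjusted p of Ccnb1 = 0.0918, limma). Cdk1 was lost without control 1, control 3, control 4, control 5, eKO 1, eKO 3, eKO 4 or eKO 5, and Cenpa without control 1, control 2, control 4 or any 1 of the 5 eKO libraries. Without control 4 the slope stayed above 0 for 21 of 22 mitosis genes, with a median of 0.085, and for 7 of 10 replication genes, with a median of 0.015. An unadjusted p under 0.05 was then given by 11 mitosis genes and 0 replication genes (limma). Among G1 and S entry genes it was given by 1, Ccnd2, with a slope below 0. Over all 16821 genes tested it was given by 1643. The stressed keratinocyte score was related to 0 of the 39 genes, against 0.00603% of all genes (limma). An unadjusted p below 0.05 on it was given by 0 of the 39, against 10.5% of all genes, and 2 of 22 mitosis genes had a slope above 0, against 49.5%.

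Taken within each genotype, the slope was above 0 for every mitosis gene tested, 21 in the control and 22 in the eKO libraries, with medians of 0.19 and 0.089. No gene among the 39 was past the threshold within either group of 5 (limma); an unadjusted p under 0.05 was given by 18 of 38 tested in the control libraries (2100 of 14990 genes in all) and by 7 of 38 in the eKO libraries (1042 of 15223 genes). For Mki67 the slope was 0.22 ± 0.048 (SE) in the control and 0.091 ± 0.038 (SE) in the eKO libraries. The difference between the slopes, eKO minus control, was -0.13 with a 95% interval of -0.29 to 0.029. It was above 0 for 0 of 22 mitosis genes, against 48.3% of all genes, and past the threshold for 0 of the 39, as for 0 of all genes, with 1 of the 39 (Kif23) and 4.46% of all genes at an unadjusted p under 0.05 (limma).

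At equal hair score, the mitosis genes again had estimates above 0 between genotypes. The median log2 fold change was 0.60 for mitosis, 0.080 for replication and 0.19 for G1 and S entry genes, with 22 of 22, 7 of 10 and 4 of 7 above 0, against 50.1% of all genes. The number past the threshold was 0 of 39, against 0.898% of all genes (limma), and it was also 0 with edgeR, against 0.838%, and with DESeq2, against 5.27%. An unadjusted p under 0.05 was given by 13 of the 39 genes, 10 of them in mitosis, against 16.5% of all genes. Tpx2 in skin was at 64.3, 60.7, 91.9, 259 and 96 in the control and 123, 179.6, 166, 219 and 119.9 in the eKO libraries. Its difference at equal hair score was 0.74 ± 0.22 (SE, adjusted p = 0.149, limma), the smallest adjusted p of the 39 genes. For Ccnb1 the difference was 0.63 ± 0.20 (adjusted p = 0.166, limma) and for Mki67 0.65 ± 0.26 (adjusted p = 0.256, limma). Without control 4, Cenpe reached 1.28 with an adjusted p of 0.0498 (limma; range over the alternatives 0.0498 to 0.473), the only call among the 39.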

How the data were processed

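RNA of 10 skin (poly-A selected, per the labels) and 6 HFSC libraries was sequenced, and the authors deposited a table for each tissue. The deposited values are a signal, gene read counts divided by 1 size factor per library. This was read from the values: all nonzero values (100%) of a library are multiples of 1 step, within 0.01 of a whole number. Alignment to GRCm39 is named for all samples, and featureCounts and DESeq2 for the skin samples, per the submitters' processing notes; strand and multi-mapping treatment are not given in the sources used here. Gene names came from GENCODE M21 (94.1% of skin and 91.4% of HFSC rows matched).

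Tests used limma (version 3.58.1, R 4.3.3) with a trended prior on log2(value + 1), over genes that reached 10 in 5 (skin) or 3 (HFSC) libraries, Benjamini-Hochberg adjustment over all genes tested and a threshold of 0.05. The design also held a test for raw counts, which the normalised unit did not allow as the main one. The authors normalised the tables separately, so only differences within a table were compared. edgeR (4.0.16) and DESeq2 (1.42.0) on recovered reads were alternatives, with other pseudocounts (0.5, 5), filters (none, 50), library size scaling and single libraries left out. Depth limits low genes, and the value of 3 reads covers counting error only. The fits were also run on simulated data, with genes drawn independently and without genes of low mean. Library effects shared by many genes, as in skin control 4, were therefore not covered there. Promoters are from RefSeq (GRCm38.p6), whose coordinates are not those of the tables, and chromosome 18 was left out. The members and lists were chosen with earlier results of these data known. Library values are given for genes past a threshold and for the largest fold change of each role and tissue, and for the further lists for the 3 smallest p per list; other genes given with values were chosen after these were seen.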

Additional observations from a re-analysis of the deposited data

Results flagged for a closer look

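Among 78 sets of 5 skin libraries (39 genes in each genotype), 25 held a library apart from the rest. Its gap to the nearest other exceeded 0.71 of the range of its set. Control 4 was the high library in 21 of these 25 sets. Chance gives about 1 in 20 for independent sets of normally distributed values. Normalised counts need not be so distributed and the genes share libraries, so 25 of 78 cannot be judged against that rate. In control 4 the flagged normalised counts of mitosis genes were 2618 for Mki67, 790 for Top2a, 399 for Ccna2, 166 for Ccnb1, 160 for Ccnb2, 188 for Cdc20, 240 for Cdk1, 155 for Plk1, 259 for Tpx2, 84.9 for Bub1 and 198 for Bub1b. They were also 188 for Birc5, 535 for Cenpa, 175 for Cenpe, 580 for Cenpf, 413 for Kif11, 72.8 for Kif20a, 337 for Kif23 and 113 for Ube2c. Outside the mitosis genes, control 4 stood apart at 396 for Rrm2 and 116 for Cdc6. This library also had the highest hair score (11.74), and the part of hair growth in its high values was not tested.

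In the eKO group, eKO 4 stood apart at 161 for Aurka and 43.1 for Ccne1, and eKO 1 was the low library at 110 for Nusap1 and 62.3 for Cdt1.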

How the results depend on the processing

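Leaving out 1 library at a time, the genes past the threshold ran from 10 to 57 in skin (62 in full), from 1519 to 2620 in HFSC (2673), from 484 to 896 for the difference between tissues (743), from 125 to 419 for the hair slope (329) and from 20 to 154 at equal hair score (149). Among the 39 cell cycle genes, those higher ran from 0 to 1 in skin, 2 to 8 in HFSC, 0 to 1 for the difference between tissues, 0 to 4 for the hair slope and 0 to 1 at equal hair score, and 0 were lower throughout. Fewer libraries are tested in each of these. In skin all genes called numbered 37 without a filter, 656 with DESeq2, 32 with library size alone, and 0 without the 2 libraries lacking Y-linked reads or with the stressed keratinocyte score as a covariate. In HFSC without a filter 5 cell cycle genes were higher in place of 9; with edgeR or DESeq2 the number was 11. For the hair slope, all genes called numbered 209 at a filter of 50, 1466 with DESeq2, 163 without the 2 libraries farthest from the median score (control 1 and eKO 1), 169 without those lacking Y-linked reads (chosen after seeing the data), 0 in the control and 4 in the eKO libraries alone. Cell cycle genes rising with the hair score were 1 at a pseudocount of 0.5, 6 at 5, 1 at a filter of 50, 5 with edgeR, 15 with DESeq2, 7 with library size alone, 1 with the inner root sheath score and 1 without the libraries lacking Y-linked reads. They were 0 without the 2 farthest libraries, without a genotype term, and in either genotype alone. At equal hair score (alternatives chosen after seeing the data) all genes called numbered 874 with DESeq2, 10 without the libraries lacking Y-linked reads, and 0 without the 2 farthest libraries or with the stressed keratinocyte score as a further term. The cause of these shifts was not tested.

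Estimates of the following genes changed sign. Ccne1 in skin ran from -0.024 (without control 3) to 0.46 with 1 library left out, was -0.014 without eKO 4 and -0.055 with the stressed keratinocyte covariate. At equal hair score Ccne1 ran from -0.012 (without control 3) to 0.51 and was -0.065 with that further term. With 1 library left out in HFSC, Cdk1 ran from -0.066 (without control 2) to 0.59 and Ccne2 from -1.71 to 0.088 (without eKO 1). The difference between tissues ran from -0.096 (without skin control 4) to 0.44 for Tpx2, from -0.75 to 0.029 (without HFSC control 3) for Cdk1, and from -0.72 (without HFSC eKO 2) to 1.08 for Ccne2, which was -0.0078 without skin eKO 5. The hair slope of Ccne1 ran from -0.016 (without control 4) to 0.11. That of Ccne2 ran from -0.050 to 0.0096 (without control 4), with 0.0065 without control 1 and 0.0093 without eKO 1, and was 0.00044 with library size alone and 0.043 without the 2 farthest libraries. The cause was not tested.

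Whether the HFSC replicate numbers pair the libraries is not settled here. Same-numbered libraries deviated with r of -0.060, -0.018 and -0.026 across genes, which cannot show whether they were prepared together. With the number as a replicate block 2696 genes were called (8 of the 39 cell cycle genes higher, Ccnd2 at an adjusted p of 0.0594 in limma), and 749 for the difference between tissues. In HFSC the intervals of Ccne2, Bub1 and Cdk1, all at low counts, span either direction.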
